A study of Homo sapiens with 22 samples.

Results

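Residual H3122 tumours left after 6 weeks of alectinib were compared between hHGF-NSG hosts and NSG hosts, gene by gene in the human reads. H3122 is an ALK-positive human non-small cell lung cancer line and alectinib is an ALK inhibitor. NSG is an immunodeficient mouse strain, and hHGF-NSG is named in the labels as its humanized HGF form; neither the promoter and allele design nor the ages of the hosts are stated in the labels. The 6-week libraries are 3 from hHGF-NSG and 4 from NSG hosts, 7 of the 22 libraries of the series, and all of them carry H3122 tumours treated with alectinib. The groups set beside them are 2 weeks of alectinib (4 hHGF-NSG and 4 NSG libraries) and therapy-naive tumours (3 hHGF-NSG and 4 NSG libraries). The human table lists 58735 genes, and the 16029 with at least 1 FPKM in at least 3 of all libraries were tested. FPKM are fragment counts scaled to gene length and library depth. Recovered human reads were 10688632 to 14376750 per hHGF-NSG library and 11934313 to 16329855 per NSG library at 6 weeks. The labels do not say that the libraries came from separate animals, so the p-values measure the spread between these libraries. Among them 2 libraries stood apart. NSG replicate 3 at 6 weeks had Pearson correlations of 0.957 to 0.963 with the other NSG libraries, which had 0.972 to 0.977 among themselves, and the library labelled NSG naive replicate 1 held human HGF reads at the level of hHGF-NSG hosts.

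Hepatocyte growth factor (HGF) is normally secreted by mesenchymal cells as an inactive precursor, which serine proteases cleave into the form that binds the receptor tyrosine kinase MET on epithelial cells. Active MET signals through adaptors to the RAS-ERK and PI3K-AKT routes and to STAT3, and is known as a bypass that can sustain growth when another kinase such as ALK is inhibited. Mouse HGF is a poor activator of human MET, which is why hosts with human HGF are used for human xenografts. The comparison asks which tumour cell transcripts differ when the host carries human HGF.

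No human gene passed the test between the hosts at 6 weeks. The limma test with Benjamini-Hochberg adjustment called 0 of 16029 genes at an adjusted p under 0.05 (0.0%), and the smallest adjusted p was 0.0725, for GRIN3B. At an unadjusted p under 0.05 there were 1946 genes, 1068 of them higher in hHGF-NSG (6.66% of the genes tested) and 878 lower (5.48%). The precision behind these numbers was moderate. The 95% confidence interval of the difference lay within 1 log2 unit of 0 for 14676 genes (91.6%) and within 0.5 for 9524 genes (59.4%). Among the 6752 protein-coding genes with a mean of at least 5 FPKM these shares were 98.6% and 71.7%. A difference past 1 log2 unit was seen for 92 genes, of which 69 were small RNA genes and 4 coded for protein. limma voom on the recovered reads called 2 genes, AVPI1 and GRIN3B, both higher in hHGF-NSG. Without NSG replicate 3 limma called 8 genes, among them AGTRAP and TPPP3, and without any other single 6-week library it called 0 to 3.

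Human HGF itself was low but separated the hosts. HGF (ENSG00000019991, hg38, chromosome 7, 81699008 to 81770438, minus strand) had 0.549, 0.408 and 0.12 FPKM in hHGF-NSG tumours, against 0.00741, 0, 0.0468 and 0 FPKM in NSG tumours. These values rest on 79, 60 and 13 reads in hHGF-NSG and on 1, 0, 6 and 0 reads in NSG. The groups did not overlap, and hHGF-NSG replicate 3 held the fewest reads of its group while NSG replicate 3 held the most of its own. The mean was 0.359 ± 0.219 FPKM in hHGF-NSG and 0.0135 ± 0.0224 FPKM in NSG (SD, n = 3 and 4), a difference of 0.41 on the log2(FPKM + 1) scale. The exact two-sided permutation test over all 35 arrangements gave p = 0.0286, the smallest it can give, while doubling the one-sided p gave an exact p of 0.0571. HGF lies under the level at which genes were tested, and whether its reads come from tumour or host cells was not tested. In the mouse table the host's own Hgf had 0.606, 0.931 and 0.191 FPKM in hHGF-NSG, against 2.66, 1.84 and 1.6 FPKM in NSG replicates 1 to 3, again without overlap. NSG replicate 4 was not analysed in the mouse table.

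**Figure D1:**
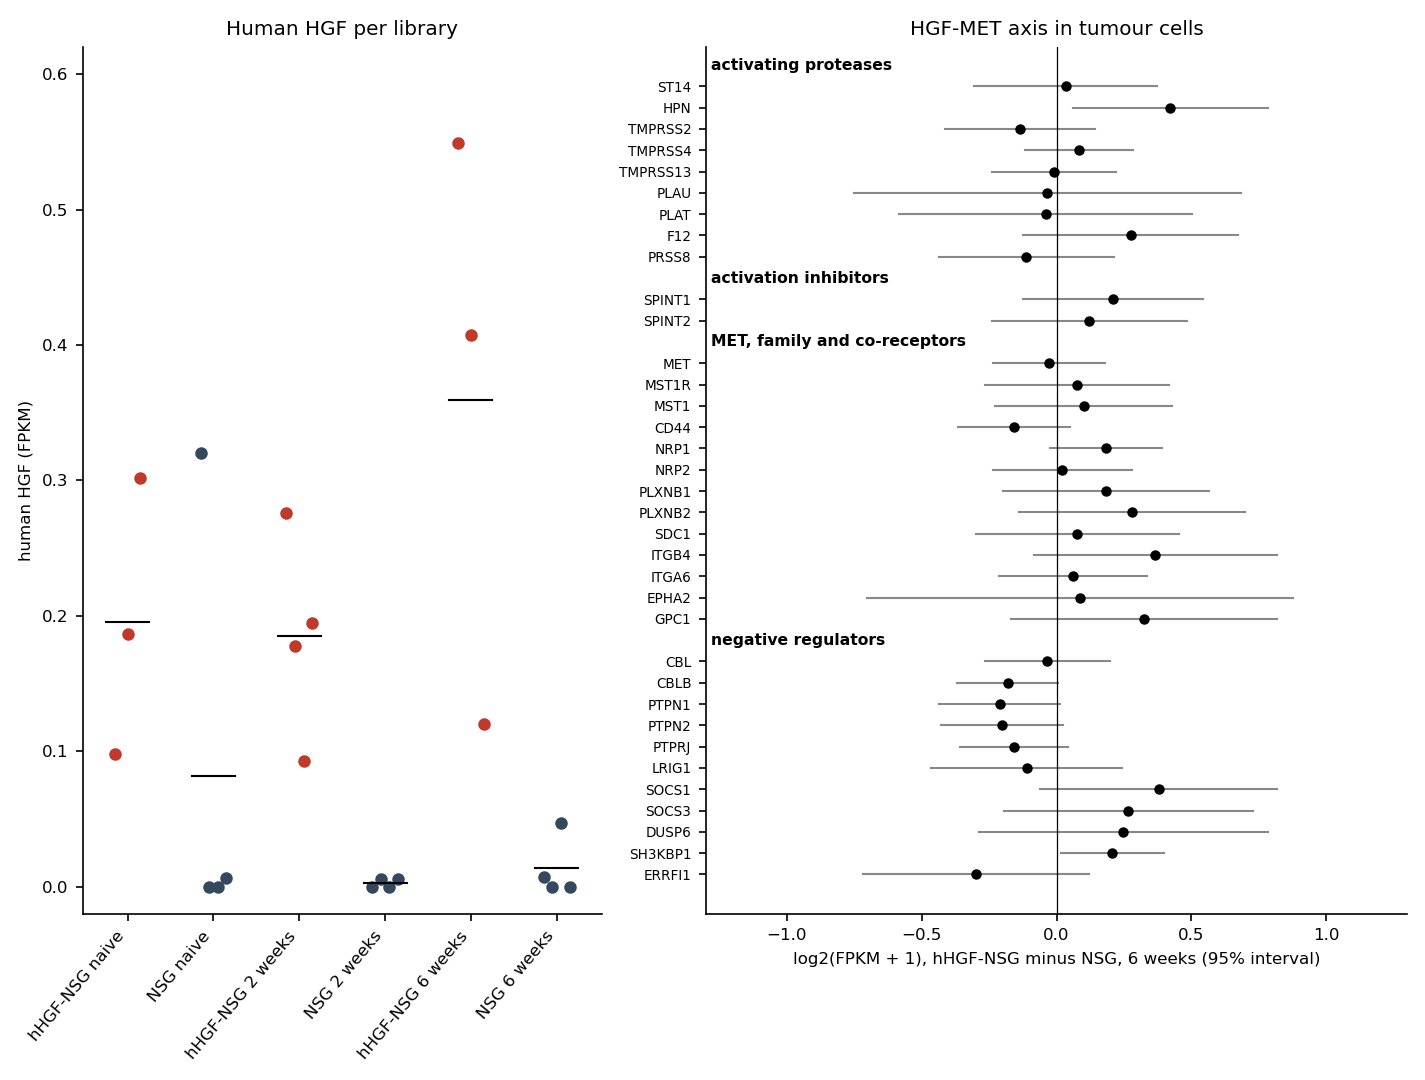
Left, human HGF in FPKM for each library (points) and the group mean (line) in the 6 groups, with 0.549, 0.408 and 0.12 FPKM in hHGF-NSG at 6 weeks and at most 0.0468 FPKM in NSG at 6 weeks. Right, the difference between hosts at 6 weeks on the log2(FPKM + 1) scale for the tested genes of the HGF-MET axis, with the 95% interval of the limma fit. MET lies at -0.03.

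MET (ENSG00000105976, hg38, chromosome 7, 116672390 to 116798386, plus strand), the HGF receptor, did not differ between hosts beyond the spread of the libraries. MET had 11.3, 12.5 and 11.7 FPKM in hHGF-NSG, against 11.4, 10.9, 11.5 and 15 FPKM in NSG. The groups overlapped, with NSG replicate 4 highest. The means were 11.9 ± 0.649 and 12.2 ± 1.91 FPKM (SD, n = 3 in hHGF-NSG and 4 in NSG). The log2 difference was -0.03 with a 95% interval of -0.24 to 0.18 and an adjusted p of 0.933 from limma, so a change of MET past 0.24 log2 units lies outside that interval. Of the 13 genes in the list of the MET family and its co-receptors, all were tested, none was called and none reached an unadjusted p under 0.05 in either direction. Their median difference was 0.09, against a median of 0.00 over all genes tested, and 0.01 after the GC smoothing described below. The members with the highest levels were the co-receptors SDC1, PLXNB2, PLXNB1 and ITGB4. SDC1, a heparan sulfate proteoglycan that binds growth factors, had 307, 310 and 237 FPKM in hHGF-NSG, against 280, 271, 284 and 240 FPKM in NSG. PLXNB2, a semaphorin receptor, had 117, 119 and 89.0 FPKM in hHGF-NSG, against 106, 102, 70.1 and 80.3 FPKM in NSG. For both genes the hosts overlapped.

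Proteases listed as activating HGF or acting in the same protease cascade were expressed in the tumour cells of both hosts. Of 12 listed genes 9 were tested, none was called, 1 had an unadjusted p under 0.05 and was higher, and the median difference was -0.01. Over all genes tested 6.66% were higher and 5.48% lower at that level. ST14 (matriptase) had 42.7, 46.2 and 37.6 FPKM in hHGF-NSG, against 42.7, 40.5, 43.1 and 38.0 FPKM in NSG. PRSS8 (prostasin) had 33.3, 33.7 and 24.7 FPKM in hHGF-NSG, against 34.6, 31.1, 39.8 and 27.1 FPKM in NSG. The exception at the unadjusted level was HPN (hepsin, a membrane serine protease), named after its values were seen, with 3.6, 3.47 and 2.99 FPKM in hHGF-NSG, against 2.65, 2.88, 1.63 and 1.97 FPKM in NSG. Its log2 difference was 0.42 ± 0.17 (SE, adjusted p = 0.339 by limma). After GC smoothing HPN had a difference of 0.19 and no protease was higher at an unadjusted p under 0.05, while 1, PRSS8, was lower at -0.32, and the median was -0.09. The inhibitors of these proteases SPINT1 and SPINT2 were both tested. SPINT1 had 121, 116 and 93.5 FPKM in hHGF-NSG, against 99.3, 98.1, 91.0 and 91.0 FPKM in NSG, a log2 difference of 0.21 ± 0.16 (adjusted p = 0.622 by limma).

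Downstream of the receptor no gene was called either. Of 24 tested adaptors and kinases 0 were called, 1 had an unadjusted p under 0.05 and a higher value and 2 a lower value, with a median of -0.04. Over all genes tested 6.66% were higher and 5.48% lower at that level. MAP2K2 (MEK2), among the highest of the list, had 37.3, 38.2 and 29.5 FPKM in hHGF-NSG, against 27.4, 26.5, 29.1 and 22.8 FPKM in NSG, without overlap. Its log2 difference was 0.39 ± 0.15 (SE, adjusted p = 0.329 by limma). GRB2, the adaptor that links receptors to RAS, had 38.7, 43.4 and 33.8 FPKM in hHGF-NSG, against 38.8, 39.3, 42.1 and 39.6 FPKM in NSG. Of the 11 tested negative regulators of MET 0 were called, and their median was -0.11. DUSP6, an ERK phosphatase that ERK itself induces, had 11.9, 13.8 and 13.3 FPKM in hHGF-NSG, against 12.2, 6.85, 8.23 and 19 FPKM in NSG. The NSG libraries enclosed the hHGF-NSG ones.

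Transcripts that read out ERK activity held no called gene. Of 21 ERK output genes 0 were called and 1 was higher at an unadjusted p under 0.05 (6.66% of all genes being higher), with a median of 0.09. CCND1 (cyclin D1) had 81.2, 93.6 and 96.0 FPKM in hHGF-NSG, against 85.4, 81.6, 83.8 and 104 FPKM in NSG, a log2 difference of 0.03 with a 95% interval of -0.20 to 0.26. The early response gene EGR1 had 21.7, 17.3 and 10.4 FPKM in hHGF-NSG, against 55.8, 12.8, 8.17 and 77.8 FPKM in NSG. NSG replicates 1 and 4 were high for EGR1, replicate 2 lay inside the hHGF-NSG range and replicate 3 below it. The 95% interval of EGR1 ran from -1.88 to 0.46. FOS, its partner in the immediate early response, had 29.9, 22.4 and 17.9 FPKM in hHGF-NSG, against 49.4, 11, 11.1 and 53.5 FPKM in NSG, the same NSG libraries being high.

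Genes known to be induced by HGF in epithelial cells (proteases, laminins, integrins and early transcription factors, 30 listed and 24 tested) were described in all 3 states. At 6 weeks none of the 24 had an unadjusted p under 0.05 and the median difference was 0.07, with 14 above 0. Without NSG replicate 4 the median was 0.18 and 19 were above 0. At 2 weeks 1 was higher and 4 were lower at that level, with a median of -0.08, against 2.59% higher and 1.66% lower over all genes. In naive tumours 10 were higher and 1 lower, with a median of 0.52, against 4.15% higher and 4.75% lower over all genes. None of them was called in any state, and the naive count was 3 without hHGF-NSG naive replicate 3 and also 3 without NSG naive replicate 2. The mean level over the list was 1.96, 2.04 and 2.04 log2(FPKM + 1) in hHGF-NSG at 6 weeks, against 1.96, 1.77, 1.72 and 2.41 in NSG at 6 weeks. In naive tumours it was 3.75, 3.51 and 4.07 in hHGF-NSG, against 3.47, 2.64, 3.54 and 3.5 in NSG. ITGA3, an integrin of laminin-binding epithelia, illustrates the 6-week values with 62.9, 57.1 and 44.0 FPKM in hHGF-NSG, against 53.8, 50.2, 35.5 and 43.6 FPKM in NSG.

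Below the threshold, the small differences that did exist ran along the base composition of the transcripts. Across the 16019 tested genes with a GENCODE transcript, the Spearman correlation between the 6-week host difference and transcript GC content was 0.51, given as a description because genes share libraries and are not replicates. In naive tumours it was -0.23 and at 2 weeks -0.12. The median difference was -0.14 in the lowest of 10 equal groups of genes by GC content and 0.25 in the highest. The gradient differed between libraries of 1 host. In the highest group the median deviation from the mean of the 7 libraries was 0.24, 0.20 and 0.01 in the hHGF-NSG libraries, against 0.01, -0.07, -0.16 and -0.21 in the NSG libraries. hHGF-NSG replicates 1 and 2 and NSG replicates 3 and 4 carried it, while hHGF-NSG replicate 3 and NSG replicate 1 were almost flat. Genes with an unadjusted p under 0.05 had a median GC content of 59.6% when higher in hHGF-NSG and 41.5% when lower, against 48.3% for all tested genes. When each library's dependence on GC content was smoothed out before the fit, a step added after seeing the data, 0 genes were called and 1219 had an unadjusted p under 0.05, 615 higher (3.84%) and 604 lower (3.77%). The source of the gradient was not tested.

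**Figure D2:**
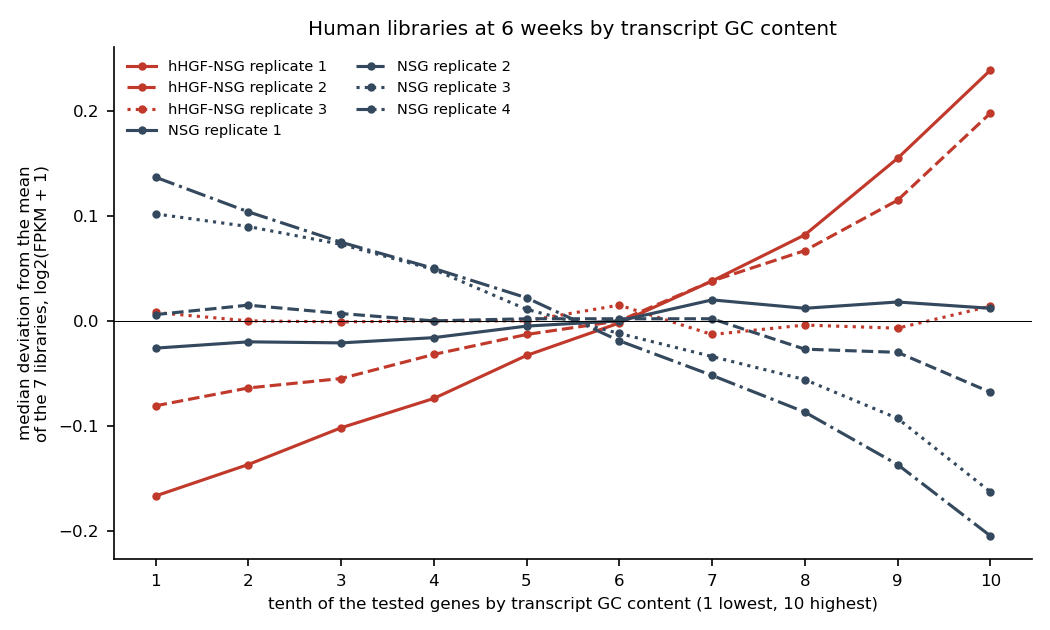
Median deviation of each 6-week human library from the mean of the 7 libraries, in log2(FPKM + 1), over 10 equal groups of the tested genes ordered by transcript GC content. Lines are libraries, hHGF-NSG in red and NSG in blue-grey, and in the highest group they run from 0.24 (hHGF-NSG replicate 1) to -0.21 (NSG replicate 4).

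The leading protein-coding genes, taken as the 15 per direction with the smallest unadjusted p among those whose hosts did not overlap, differed by less than 1.1 log2 units. None of the 30 passed the adjusted threshold. Over all genes tested, the hosts did not overlap for 964 genes higher in hHGF-NSG (6.01%) and 861 lower (5.37%). GRIN3B (chromosome 19), a subunit of NMDA glutamate receptors, had 11.4, 10.8 and 9.82 FPKM in hHGF-NSG, against 7.74, 4.82, 4.94 and 4.35 FPKM in NSG. The means were 10.7 ± 0.808 and 5.46 ± 1.54 FPKM (SD, n = 3 in hHGF-NSG and 4 in NSG), a log2 difference of 0.88 ± 0.15 (SE, adjusted p = 0.0725 by limma). All 3 hHGF-NSG libraries lay above the highest NSG library, replicate 1. NDUFA3, a subunit of respiratory complex I, had 17.1, 13.3 and 17.1 FPKM in hHGF-NSG, against 9.2, 9.29, 9.52 and 10.7 FPKM in NSG (log2 difference 0.65 ± 0.12, adjusted p = 0.0755 by limma). AVPI1, a vasopressin-induced gene, had 46.2, 44.6 and 39.0 FPKM in hHGF-NSG, against 28.3, 21.7, 24.8 and 28.5 FPKM in NSG (log2 difference 0.73 ± 0.14, adjusted p = 0.107 by limma). RFX2, a transcription factor of ciliated cells, had 7.03, 5.98 and 7.44 FPKM in hHGF-NSG, against 5.28, 4.51, 4.38 and 4.49 FPKM in NSG (log2 difference 0.46 ± 0.09, adjusted p = 0.107 by limma). The other 11 were IRX3, an Iroquois homeobox factor, AGTRAP, which binds the angiotensin II receptor, IER5L, C6orf136, WDR38, CDC42EP5, a CDC42 effector, PRR7, KCNH3, a potassium channel, the mitochondrial proteins CHCHD10 and NME4, and METTL26. All 15 had differences of 0.37 to 1.06 and adjusted p-values of 0.0725 to 0.132 (limma).

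**Figure D3:**
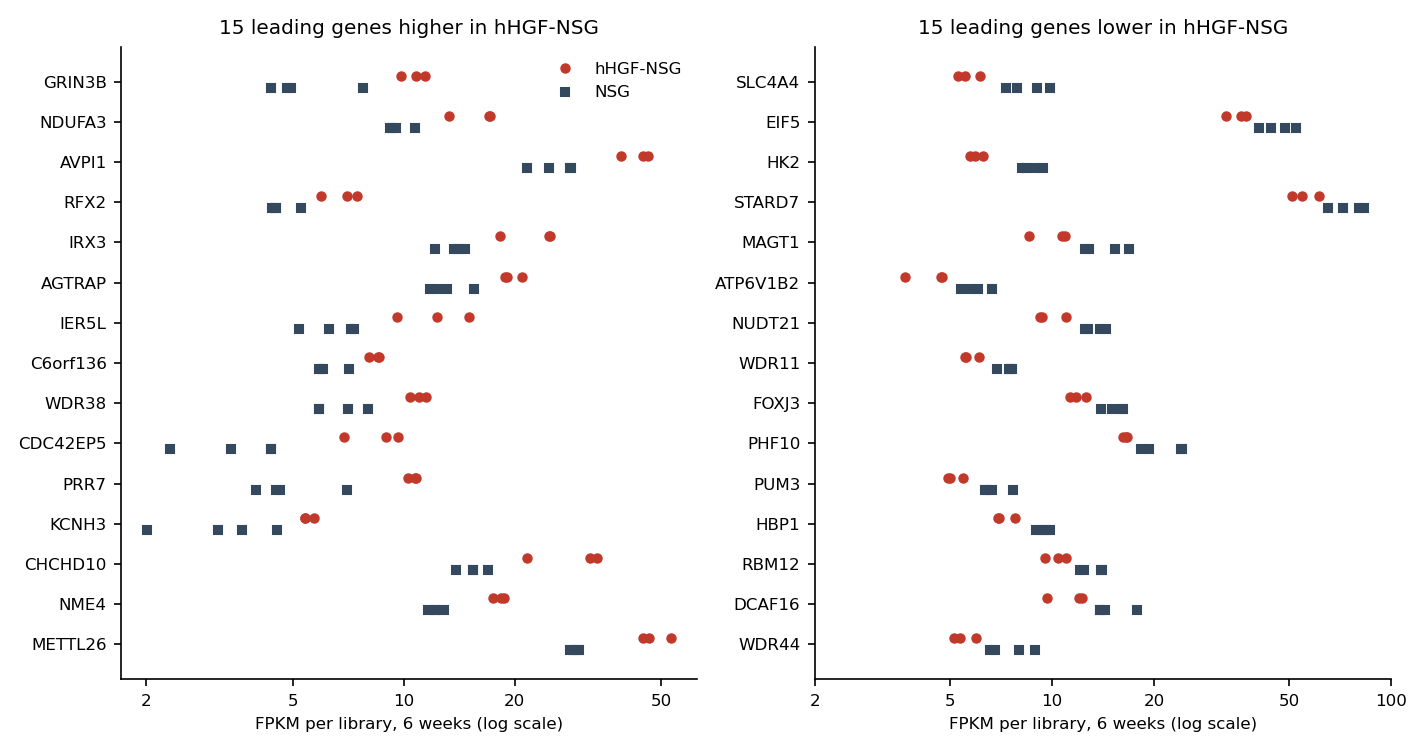
FPKM of the 15 leading genes per direction in each 6-week library on a log axis, hHGF-NSG as circles above NSG as squares. GRIN3B, at the top left, has 9.82 to 11.4 FPKM in hHGF-NSG and 4.35 to 7.74 FPKM in NSG.

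Among the 15 genes with lower values in hHGF-NSG the differences were smaller, -0.51 to -0.32, with adjusted p-values of 0.107 to 0.218 (limma). SLC4A4, a sodium bicarbonate cotransporter, had 5.26, 6.15 and 5.52 FPKM in hHGF-NSG, against 7.86, 7.31, 9.01 and 9.84 FPKM in NSG (log2 difference -0.51 ± 0.10, adjusted p = 0.107 by limma). HK2, the inducible hexokinase of glycolysis, had 5.73, 5.93 and 6.24 FPKM in hHGF-NSG, against 8.18, 8.39, 9.43 and 8.91 FPKM in NSG (log2 difference -0.48 ± 0.11, adjusted p = 0.132 by limma). Every hHGF-NSG library lay below every NSG library for both. The others included EIF5, a translation initiation factor, STARD7, a phosphatidylcholine transfer protein, MAGT1, the vacuolar ATPase subunit ATP6V1B2, the cleavage factor NUDT21, WDR11, the transcription factors FOXJ3 and HBP1, PHF10 of the BAF chromatin complex, PUM3, RBM12, DCAF16 and WDR44. The 30 genes split by composition as the whole table did, with a median GC content of 63.9% in the higher ones and 41.6% in the lower ones. After GC smoothing all 30 kept an unadjusted p under 0.05, with differences of 0.22 to 0.65 and -0.50 to -0.22, and the smallest adjusted p was 0.318. Because the 30 were chosen for small p-values in these same libraries, their staying under 0.05 is not separate support.

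The same 30 genes were also described in the other states. At 2 weeks 0 of 16029 genes were called (681 at an unadjusted p under 0.05 by limma). Of the 15 higher genes AVPI1 and RFX2 had an unadjusted p under 0.05 in the same direction, and of the 15 lower genes 1 did. The shares over all genes at 2 weeks were 2.59% higher and 1.66% lower. In naive tumours 3 genes were called (0.0187%), and none of the 30 had an unadjusted p under 0.05 in the same direction. In the opposite direction 5 of the 15 higher and 1 of the 15 lower genes did. The shares over all genes in naive tumours were 4.15% higher and 4.75% lower. The part of GC content in these opposite signs was not tested. The test of the difference between the 6-week and the naive host difference called 0 genes by limma. At an unadjusted p under 0.05 there were 2142, 7.89% of the genes tested with a positive and 5.47% with a negative difference, and 5.01% and 4.29% after GC smoothing. All 30 leading genes had an unadjusted p under 0.05 there, with adjusted p-values of 0.0623 and above; being chosen for their 6-week values, they enter this contrast with that choice already made. One naive library moved this result. The library labelled NSG naive replicate 1 held 43 HGF reads (0.32 FPKM), against 0, 0 and 1 in the other naive NSG libraries, as many as hHGF-NSG libraries do. Without it 62 genes were called in this contrast, 8 of them among the 30 (AGTRAP, CDC42EP5, CHCHD10, IRX3, NDUFA3, NME4, PUM3 and RFX2). The test against the 2-week host difference called 0 genes by limma, with 1299 at an unadjusted p under 0.05, 4.52% of the genes tested with a positive and 3.58% with a negative difference.

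Of the 70 gene lists described, the motile cilium axoneme had the highest share of members at an unadjusted p under 0.05. These genes encode dynein arms, radial spokes, tektins and other parts of beating cilia, as in airway ciliated cells. Of 53 listed genes 45 were tested and none was called. At an unadjusted p under 0.05 there were 18 higher in hHGF-NSG (40.0%, against 6.66% of all genes) and 1 lower, and 42 of the 45 differences were above 0, with a median of 0.27. After GC smoothing 17 were higher and 0 lower at that level (3.84% of all genes being higher), with a median of 0.24. The list's mean was 3.37, 3.27 and 3.34 log2(FPKM + 1) in hHGF-NSG, against 3.09, 2.96, 3.28 and 2.95 in NSG. NSG replicate 3 was the highest of its host and just above the lowest hHGF-NSG library. At 2 weeks the means were 4.40, 4.48, 4.23 and 4.31 in hHGF-NSG, against 4.36, 4.22, 4.09 and 4.09 in NSG, with 7 of the 45 higher and 0 lower at an unadjusted p under 0.05, against 2.59% and 1.66% of all genes. In naive tumours the list was near its floor, at 0.92, 0.78 and 0.85 in hHGF-NSG, against 0.81, 0.82, 0.80 and 0.80 in NSG. Leaving out 1 library at a time gave 13 to 23 higher genes at 6 weeks, and with GC smoothing as well 8 to 21. The members share libraries and, in part, one expression programme, so their count is not a count of independent results.

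**Figure D4:**
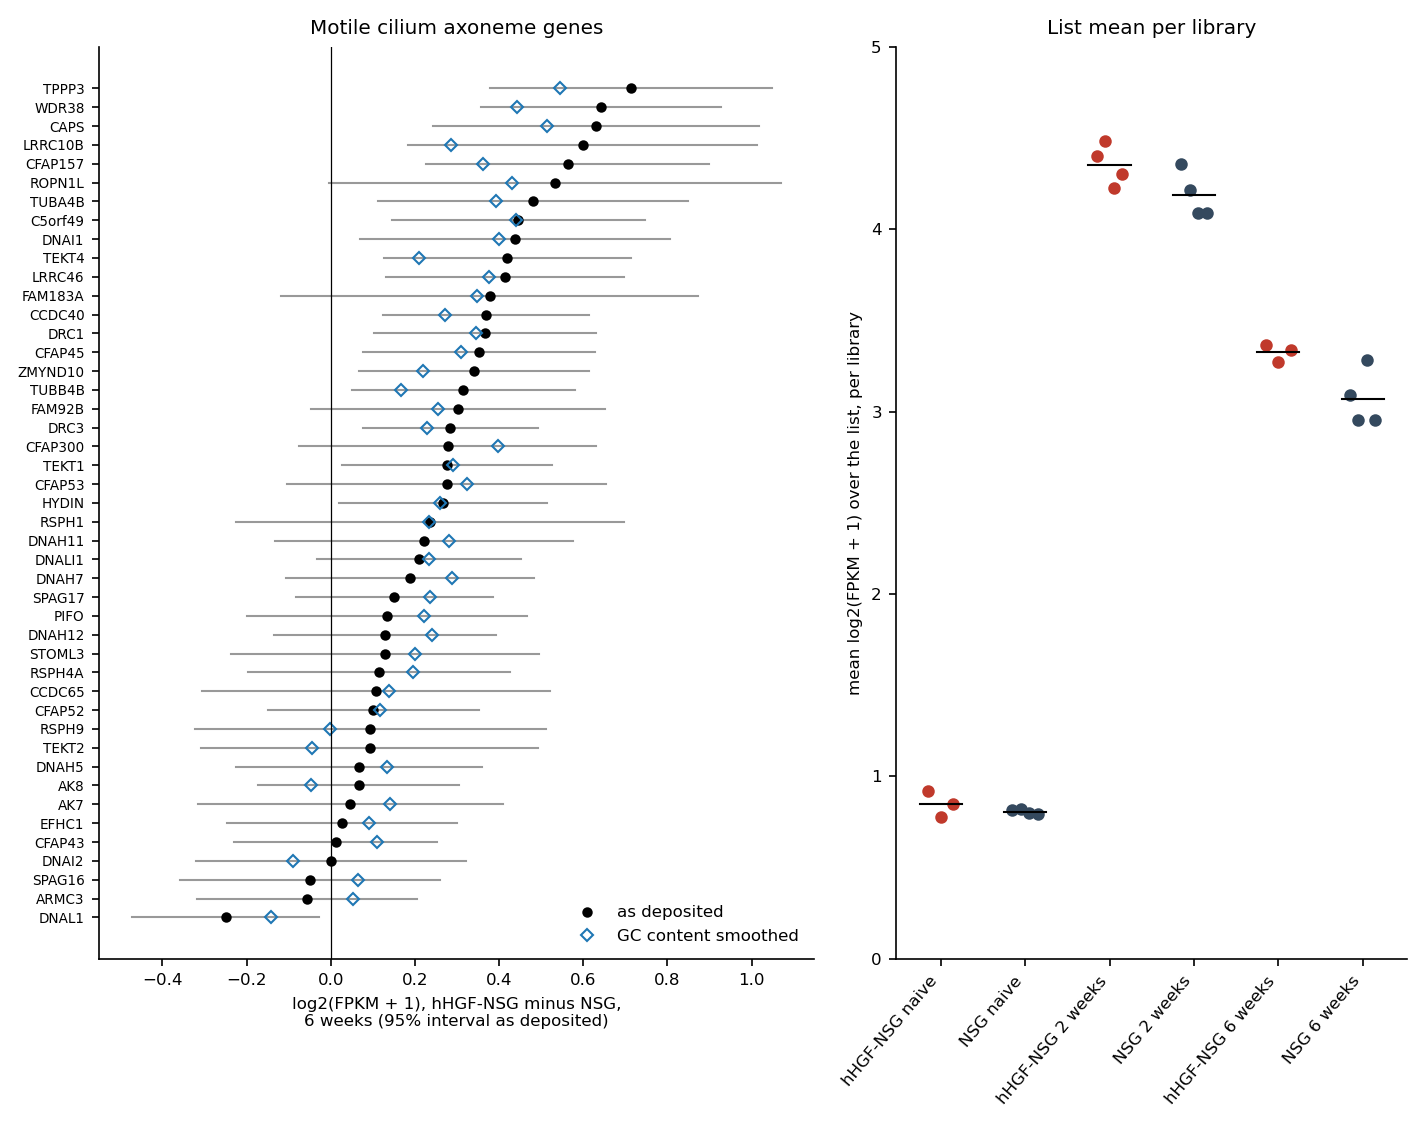
Left, the 6-week difference between hosts for the 45 tested axoneme genes on the log2(FPKM + 1) scale, as deposited with the 95% interval and after GC smoothing (open diamonds). Right, the list's mean log2(FPKM + 1) in each library of the 6 groups, with 3.27 to 3.37 in hHGF-NSG and 2.95 to 3.28 in NSG at 6 weeks.

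The members with the highest levels were TUBB4B, a tubulin of axonemes and other microtubules whose reads can be shared with near-identical tubulin genes, ROPN1L, a radial spoke protein, TPPP3, a tubulin-binding protein, and CAPS, a calcium-binding protein of ciliated cells. TPPP3 (chromosome 16, 67389809 to 67393535, minus strand) had 59.4, 49.9 and 44.8 FPKM in hHGF-NSG, against 32.8, 27.2, 41.2 and 24.0 FPKM in NSG, without overlap. Its log2 difference was 0.71 ± 0.16 (SE, adjusted p = 0.132 by limma). CAPS had 51.7, 46.6 and 40.3 FPKM in hHGF-NSG, against 30.5, 27.5, 37.3 and 23.6 FPKM in NSG (log2 difference 0.63 ± 0.19, adjusted p = 0.242 by limma). ROPN1L had 61.3, 53.2 and 52.4 FPKM in hHGF-NSG, against 37.9, 30.5, 57.3 and 31.5 FPKM in NSG, and here NSG replicate 3 lay inside the hHGF-NSG range. FOXJ1, the master transcription factor of motile cilia, had 174, 175 and 140 FPKM in hHGF-NSG, against 119, 92.6, 156 and 101 FPKM in NSG (log2 difference 0.50 ± 0.18, adjusted p = 0.285 by limma), and 0.22 after GC smoothing. Of 16 tested regulators of multiciliogenesis 2 were higher and 2 lower at an unadjusted p under 0.05, and their median was -0.01. Only 8 of the 16 differences were above 0, and they ran from -0.27 to 0.50. After GC smoothing 1 was higher and 0 lower, with a median of 0.10. MCIDAS and CCNO, regulators of the multiciliated programme named for their high levels in that list, had log2 differences of 0.20 and 0.19. In the mouse table at 6 weeks Foxj1 had at most 0.403 FPKM and Wdr38 at most 0.344 FPKM, whereas Tppp3 had 17.7, 17.0 and 21.7 FPKM in hHGF-NSG, against 13.9, 7.31 and 7.48 FPKM in NSG replicates 1 to 3. Tubb4b had 51.5, 55.1 and 51.6 FPKM in hHGF-NSG, against 41.4, 38.3 and 44.4 FPKM in the same NSG libraries, while Ropn1l overlapped.

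RFX factors bind a sequence called the X-box in promoters of ciliary genes. Only symbols with a single RefSeq (GRCh38.p14) promoter window were searched, and these held 30 of the 45 axoneme genes. The short form GTTGCC, on either strand, occurred in the 250 bases before the start in 13 of the 30 (43.3%), against 10.15% of 22114 promoters. The longer form, GTTNCC and GGNAAC separated by any 2 bases, whose matches can overlap the short form, occurred in 2 of the 30, against 0.38% of all. Among the 6765 promoters of tested protein-coding genes the shares were 11.12% for the short form and 0.44% for the longer form. The median host difference was 0.28 for the 13 genes with the short form and 0.19 for the 17 without it. Stretches of 5 promoters are shown, those with the smallest unadjusted p among the 13, so that the match can be seen; it stands in capitals as GTTGCC or as its reverse complement GGCAAC, 5′ to 3′ on the strand of the gene; CFAP45 also holds the longer form.
WDR38, chr9:124853214-124853269, plus strand: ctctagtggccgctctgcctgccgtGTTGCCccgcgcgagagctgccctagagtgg
LRRC10B, chr11:61508674-61508729, plus strand: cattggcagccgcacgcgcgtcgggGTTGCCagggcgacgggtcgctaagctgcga
TEKT4, chr2:94871388-94871429, plus strand: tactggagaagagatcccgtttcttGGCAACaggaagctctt
DRC1, chr2:26401884-26401919, plus strand: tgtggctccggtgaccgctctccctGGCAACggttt
CFAP45, chr1:159900166-159900280, minus strand: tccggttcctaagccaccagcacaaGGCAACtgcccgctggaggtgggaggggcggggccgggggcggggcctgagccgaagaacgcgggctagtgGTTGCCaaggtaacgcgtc
Apart from WDR38 these genes are named after their values were seen. DRC1, of the nexin-dynein regulatory complex, had 14.4, 15.3 and 14.6 FPKM in hHGF-NSG, against 12.9, 8.84, 14.3 and 9.62 FPKM in NSG. TEKT4, a tektin filament protein, had 4.16, 6.19 and 4.55 FPKM in hHGF-NSG, against 3.48, 3.69, 4.14 and 2.52 FPKM in NSG. CFAP45, a microtubule inner protein, had 10.5, 10.5 and 12.5 FPKM in hHGF-NSG, against 7.95, 7.29, 11.2 and 7.99 FPKM in NSG. A match of letters is a description of the promoter and does not show binding.

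The other lists held no called gene, and their counts at an unadjusted p under 0.05 are read against 6.66% higher and 5.48% lower over all genes, or 3.84% and 3.77% after GC smoothing. Of 32 genes of the G1/S transition and DNA replication 2 were higher and 2 lower at an unadjusted p under 0.05, with a median of 0.00, and of 32 mitosis genes 2 were higher and 1 lower, with a median of 0.02. CDK1, the mitotic kinase, had 5.05, 6.26 and 7.73 FPKM in hHGF-NSG, against 6.18, 6.7, 8.84 and 7.31 FPKM in NSG. Apoptosis regulators of the BCL2 family (14 tested) had 0 higher and 1 lower, and MCL1, an anti-apoptotic member, had 339, 401 and 376 FPKM in hHGF-NSG, against 465, 350, 384 and 636 FPKM in NSG. Of 23 epithelial junction genes 2 were higher and 1 lower at that level, and after GC smoothing 4 and 0. EPCAM, an epithelial adhesion protein, had 276, 298 and 235 FPKM in hHGF-NSG, against 242, 252, 344 and 255 FPKM in NSG. Of 11 tested mesenchymal genes 0 were higher and 1 lower, and VIM (vimentin) had 1.88, 2.07 and 3.35 FPKM in hHGF-NSG, against 1.64, 1.68, 1.87 and 3.6 FPKM in NSG. Interferon response genes had 2 higher and 1 lower of 39. IFI6, an interferon-induced mitochondrial protein, had 71.7, 189 and 60.4 FPKM in hHGF-NSG, against 40.1, 53.2, 60.6 and 46.4 FPKM in NSG, hHGF-NSG replicate 2 standing apart.

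Other receptor kinases that can stand in for ALK were described beside MET. Of 20 tested receptor tyrosine kinases 0 were called, 1 was higher and 2 were lower at an unadjusted p under 0.05, with a median of -0.03. Over all genes tested 6.66% were higher and 5.48% lower at that level. ERBB2 had 56.4, 60.9 and 42 FPKM in hHGF-NSG, against 62.8, 59.1, 48.9 and 49.6 FPKM in NSG. ERBB3, its signalling partner, had 49, 51.3 and 40 FPKM in hHGF-NSG, against 55.2, 50, 45 and 44.9 FPKM in NSG. For both the hosts overlapped. The 3 at the unadjusted level, named after their values were seen, were FGFR3, KIT and INSR. FGFR3, a fibroblast growth factor receptor, had 11.6, 9.44 and 11.3 FPKM in hHGF-NSG, against 7.98, 7.37, 5.26 and 7.07 FPKM in NSG (log2 difference 0.58 ± 0.20, adjusted p = 0.279 by limma). KIT, the stem cell factor receptor, had 7.63, 8.5 and 8.21 FPKM in hHGF-NSG, against 10.5, 10.6, 12.2 and 9.95 FPKM in NSG (log2 difference -0.37 ± 0.12, adjusted p = 0.271 by limma). INSR, the insulin receptor, had a log2 difference of -0.23 ± 0.11 (adjusted p = 0.403 by limma). The hosts did not overlap for FGFR3 and KIT.

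Among STAT3 targets 3 of 12 were higher and 0 lower at an unadjusted p under 0.05 (6.66% and 5.48% over all genes), with a median of 0.11. After GC smoothing 1 was higher and 1 lower, and the median was -0.01. CEBPD, a transcription factor that STAT3 induces, had 45, 40.6 and 31.1 FPKM in hHGF-NSG, against 29.1, 24.6, 24.9 and 21.4 FPKM in NSG, without overlap. Its log2 difference was 0.61 ± 0.20 (adjusted p = 0.271 by limma), and 0.24 after GC smoothing. In the mouse table Cebpd had 49.2, 44.2 and 45.3 FPKM in hHGF-NSG, against 32.8, 24.9 and 26.3 FPKM in NSG replicates 1 to 3, whereas Il6st overlapped between hosts. IL6ST, the shared receptor chain of the interleukin-6 family, had 22.4, 25.9 and 22.9 FPKM in hHGF-NSG, against 29.7, 29.6, 25.9 and 30.5 FPKM in NSG. In the Notch pathway, which sets secretory against ciliated fate in airways, 3 of 17 were higher and 0 lower, with 13 differences above 0 and a median of 0.08. After GC smoothing 1 was higher and 0 lower, with 6 differences above 0 and a median of -0.09, the members having a median GC content of 62.7%. HES1, a Notch target, had 58.6, 68.1 and 64.7 FPKM in hHGF-NSG, against 49.4, 44.8, 58.7 and 52.3 FPKM in NSG. HES5, a related target named after its values were seen, had 10.6, 12.6 and 8.29 FPKM in hHGF-NSG, against 6.57, 6.74, 5.51 and 4.24 FPKM in NSG (log2 difference 0.77 ± 0.20, adjusted p = 0.218 by limma). The log2 difference of HES5 was 0.48 after GC smoothing.

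Of 15 tested lung lineage factors 1 was higher and 2 were lower at an unadjusted p under 0.05, with a median of 0.04. NKX2-1, the lung lineage transcription factor, had 382, 328 and 252 FPKM in hHGF-NSG, against 259, 244, 234 and 203 FPKM in NSG (log2 difference 0.43 ± 0.16, adjusted p = 0.286 by limma). hHGF-NSG replicate 3 lay inside the NSG range for NKX2-1. The epithelial ETS factors EHF and ELF5, named after their values were seen, lay the other way. EHF had 16.7, 22.6 and 27.1 FPKM in hHGF-NSG, against 31.5, 36.4, 26.7 and 38.5 FPKM in NSG, and ELF5 had a log2 difference of -0.38 ± 0.13 (adjusted p = 0.283 by limma). Of the club and secretory airway genes 2 of 14 were higher and 0 lower, and after GC smoothing 1 and 0. SCGB3A1, a secretoglobin, had 397, 304 and 245 FPKM in hHGF-NSG, against 237, 178, 346 and 176 FPKM in NSG, NSG replicate 3 again being the highest of its host.

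Glucocorticoid targets had 2 of 10 higher and 2 lower, with a median of 0.02, and after GC smoothing 1 and 2. The higher ones were MT2A and CEBPD, which other lists hold as well, and the lower ones, named after their values were seen, were SGK1 and TSC22D3. SGK1, a kinase that glucocorticoids induce, had 2.71, 1.8 and 1.66 FPKM in hHGF-NSG, against 3.48, 3.41, 4.1 and 2.67 FPKM in NSG (log2 difference -0.54 ± 0.15, adjusted p = 0.226 by limma). TSC22D3, the leucine zipper protein GILZ, had 12.8, 13 and 12.6 FPKM in hHGF-NSG, against 13.9, 13.4, 18.8 and 20.1 FPKM in NSG (log2 difference -0.32 ± 0.14, adjusted p = 0.361 by limma). The Wnt pathway had 3 of 14 higher and 1 lower, with a median of -0.003, and after GC smoothing 1 and 2. Chemokines and cytokines had 3 of 15 higher and 1 lower, with a median of 0.10, and after GC smoothing 0 and 1. MDK (midkine), a secreted growth factor, had 56.1, 45.8 and 42.9 FPKM in hHGF-NSG, against 37.7, 36.6, 43.5 and 35.7 FPKM in NSG.

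Metabolic and stress lists held no called gene. Of the 4 tested metallothioneins 1 was higher and 0 lower at an unadjusted p under 0.05, with a median of 0.40 (0.31 after GC smoothing). Their mean was 2.54, 2.46 and 2.53 log2(FPKM + 1) in hHGF-NSG, against 2.04, 1.84, 2.62 and 1.98 in NSG. NSG replicate 3 thus lay above every hHGF-NSG library. MT2A, a metal-binding protein whose reads can be shared with its paralogs, had 62.2, 61.3 and 58.4 FPKM in hHGF-NSG, against 36.5, 27.3, 54.1 and 32.9 FPKM in NSG. NRF2 targets had 3 of 17 higher and 1 lower, with a median of 0.15. FTL (ferritin light chain) had 664, 600 and 530 FPKM in hHGF-NSG, against 478, 441, 549 and 446 FPKM in NSG, NSG replicate 3 lying inside the hHGF-NSG range. The 23 cholesterol synthesis genes had 3 higher and 0 lower, with a median of 0.11. Endoplasmic reticulum chaperones lay on the other side, with 0 of 17 higher and 2 lower, a median of -0.19, and -0.11 after GC smoothing. The list's mean was 4.87, 5.04 and 4.89 log2(FPKM + 1) in hHGF-NSG, against 4.94, 4.95, 5.23 and 4.98 in NSG. NSG replicate 3 was highest and the hosts overlapped. In naive tumours 0 were higher and 3 lower at an unadjusted p under 0.05 (4.15% and 4.75% of all genes), with a median of -0.08. At 2 weeks 0 were higher and 1 lower (2.59% and 1.66%), with a median of -0.11. HSP90B1, the chaperone GRP94, had 102, 117 and 106 FPKM in hHGF-NSG, against 123, 133, 164 and 128 FPKM in NSG (log2 difference -0.33 ± 0.12, adjusted p = 0.284 by limma). Every hHGF-NSG library was below every NSG library for HSP90B1, whereas HSPA5, the chaperone BiP, overlapped with 101, 114 and 88.5 FPKM in hHGF-NSG, against 107, 108, 134 and 113 FPKM in NSG. Cytosolic heat shock genes had 0 of 12 higher and 2 lower, with a median of -0.12. At 2 weeks 3 were higher and 0 lower (2.59% and 1.66% of all genes), with a median of 0.20. HSPA8, the constitutive HSP70 chaperone, had 86.2, 114 and 125 FPKM in hHGF-NSG, against 140, 124, 164 and 166 FPKM in NSG (log2 difference -0.46 ± 0.13, adjusted p = 0.234 by limma). Only NSG replicate 2 reached into the hHGF-NSG range of HSPA8. Among 32 oxidative phosphorylation genes 4 were higher and 1 lower, and after GC smoothing 1 was higher and 0 lower. CYC1 (cytochrome c1) had 76, 86.7 and 67.2 FPKM in hHGF-NSG, against 63.6, 60.5, 64.4 and 51.9 FPKM in NSG (log2 difference 0.34 ± 0.11, adjusted p = 0.271 by limma), and 0.09 after GC smoothing. In glycolysis 2 of 22 were higher and 1, HK2, lower, and after GC smoothing 1 and 1. ENO1 (enolase) had 183, 185 and 179 FPKM in hHGF-NSG, against 144, 141, 172 and 156 FPKM in NSG. For the lists with at least 4 tested genes, the medians lay between -0.19 and 0.40.

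**Figure D5:**
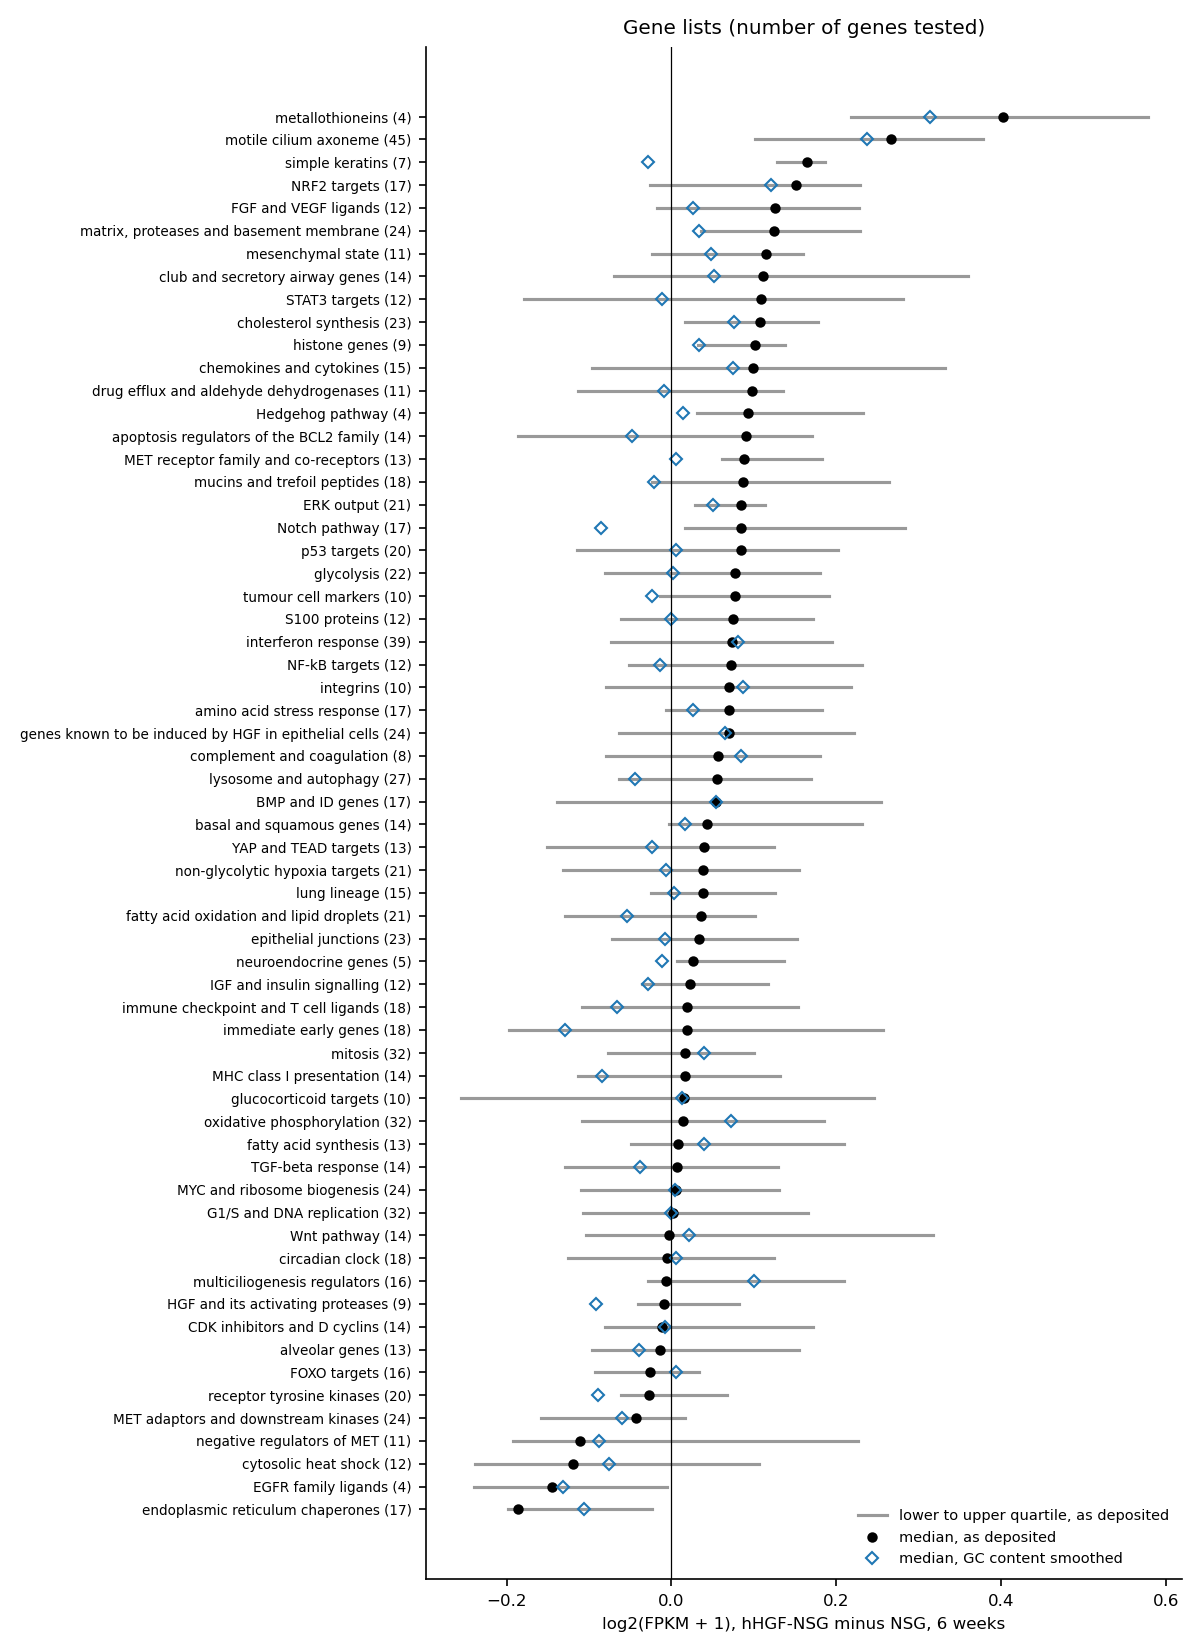
Median 6-week difference between hosts in log2(FPKM + 1) for each gene list with at least 4 tested genes, as deposited (filled, with a bar from the lower to the upper quartile of the members) and after GC smoothing (open). Metallothioneins (0.40) and axoneme genes (0.27) lie at the top and endoplasmic reticulum chaperones (-0.19) at the bottom.

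The libraries also differed in host tissue. Mouse reads made up 24.3%, 28.6% and 29% of recovered reads in hHGF-NSG, against 16.9%, 21.9% and 18.7% in NSG replicates 1 to 3. The means were 27.3 ± 2.6% and 19.2 ± 2.51% (SD, n = 3 each). The groups did not overlap, and the exact two-sided permutation p was 0.1, the smallest that 3 against 3 libraries allow. The part of this share in the gene differences was not tested, and in bulk tissue fewer cells of a type and less RNA per cell cannot be told apart. In the human table the tumour cell markers summed to 1396 to 1763 FPKM in hHGF-NSG and 1350 to 1597 FPKM in NSG, none of the 10 at 0. Of 12 fibroblast markers, 11 stayed under 1 FPKM in all 7 libraries, with PDGFRB and POSTN at 0, and their sums were 12.7 to 16.6 FPKM in hHGF-NSG and 5.37 to 14.5 FPKM in NSG. Of 11 leukocyte markers 10 stayed under 1 FPKM, with CD3E, C1QA and FCGR3A at 0, and the sums were 1.21 to 1.76 FPKM in hHGF-NSG and 0.878 to 1.71 FPKM in NSG. Endothelial markers summed to 8.09 to 11.5 FPKM in hHGF-NSG and 7.78 to 20.1 FPKM in NSG, with 5 of 8 under 1 FPKM. Adipocyte, skeletal muscle and erythroid markers were all under 1 FPKM.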

How the data were processed

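Reads of H3122 xenograft tumours were mapped to human (GRCh38, hg38) and mouse (mm10) genomes, per the submitters' processing notes, which also name DESeq2 without a role. TRIzol was used for total RNA, per the labels' protocols, and the sources used here name no aligner, annotation or species filter. The authors deposited FPKM, 1 value per gene and library. Whole reads were recovered from the FPKM steps and gene lengths (100.0% whole within 0.05), which gave depths and mouse shares. The intervals came from the limma fit and cover the spread between libraries of a group. The read numbers by themselves speak to counting error only.

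Values were transformed to log2(FPKM + 1) from the deposited FPKM, which understates changes of low genes. The fit used limma 3.58.1 (R 4.3.3) with a mean for each group, all 22 libraries and a variance trend, two-sided, with Benjamini-Hochberg adjustment over 16029 genes and a threshold of 0.05. HGF and the mouse share were compared by exact permutation with scipy 1.17.1. Transcript GC content came from the longest GENCODE v29 transcript, and smoothing used lowess with a span of 0.3. The fit was also run on simulated counts with the same dispersion for every gene and no GC gradient. That run does not show how the fit handles the gradient described above.

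The members, the 70 gene lists and the tests were chosen with earlier results of these data known. Named genes were HGF and MET, the 15 per direction described in the text with a mean of at least 5 FPKM in the higher host, and up to 4 members per list with the highest mean, as none was called; others are said to be named after their values were seen. Replicate numbers were not used to pair the libraries in the main fit.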

Additional observations from a re-analysis of the deposited data

Results flagged for a closer look

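Of 87 genes named in the text, 8 had 1 of the 4 NSG libraries at 6 weeks far from the other 3, by a gap over 0.829 of the group's range (Dixon's 95% critical value for 4 samples); chance flags about 1 in 20 groups. Groups of 3 libraries were not examined. NSG replicate 4 was the high library for MET (15.03 FPKM, the others 10.9 to 11.46), CCND1 (103.9 FPKM, the others 81.59 to 85.36) and VIM (3.604 FPKM, the others 1.635 to 1.869). NSG replicate 3 was the high library for HGF (0.04677 FPKM, the others 0 to 0.007407), EPCAM (344 FPKM, the others 241.5 to 254.7) and DCAF16 (17.83 FPKM, the others 13.83 to 14.36). NSG replicate 1 was the high library for C6orf136 (7.107 FPKM, the others 5.888 to 6.05) and RFX2 (5.277 FPKM, the others 4.384 to 4.508).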

How the results depend on the processing

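Depth and the number of libraries limit small differences: HGF rests on 0 to 79 reads, and 3 against 4 libraries leave intervals wider than 0.5 log2 units for many genes. In the 6-week comparison limma called 0 genes with a pseudocount of 0.1, median ratio rescaling, the 6-week libraries alone or GC smoothing, 1 gene without a filter and 2 with limma voom on recovered reads. Leaving out 1 library gave 0 to 8 calls, and GC smoothing with a library left out gave 0, 1 or 2; small RNA genes were among both. The 2-week comparison gave 2 calls without a filter and 0 to 1 with a library left out. The naive comparison (3 calls) gave 5 with a pseudocount of 0.1, 25 without a filter and 0 to 40 with a library left out, 40 being without NSG naive replicate 1. The 6-week minus naive contrast gave 6 calls with a pseudocount of 0.1, 5 without a filter, 2 with median ratio rescaling and 0 to 62 with a library left out. The 6-week minus 2-week contrast gave 2 without a filter and 0 to 1 with a library left out. Genes with an interval within 0.5 log2 units numbered 6234 with a pseudocount of 0.1. The 18 axoneme genes became 13 to 23 over the other settings, and 8 to 21 with GC smoothing and a library left out (9 without hHGF-NSG replicate 1, NSG replicate 2 or NSG replicate 4, and 8 without hHGF-NSG replicate 3). The HGF difference ranged from 0.31 to 0.543 log2 units with a library left out, where 6 or 5 libraries cannot reach p under 0.05. The mouse share difference ranged from 7.01 to 9.63 percentage points. The cause of these shifts was not tested.

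The replicate block gave 0 calls at 6 weeks, 1 in naive tumours and 16 axoneme genes. Same-numbered 6-week libraries had deviation correlations of 0.095, -0.064 and -0.049, and differently numbered ones had -0.104 to 0.13. Deviations within groups of 3 and 4 libraries cannot show or exclude pairing. The planned quasi-likelihood count test was not run, because the deposited values are FPKM.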
